A study of Homo sapiens with 24 samples.

Results

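The inhibitor-of-κB kinase (IKK) complex and the kinases that act on it or beside it were followed in RNA recovered with the RNA-binding protein HuR from a human airway cell line. The members were chosen by gene symbol: CHUK, IKBKB, IKBKG, IKBKE, TBK1, MAP3K14, MAP3K7 and TAB1, which the array lists under its older name MAP3K7IP1. All 8 were found, each with 1 probe, among 355 gene probes with values.

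The cells were BEAS-2B, an established epithelial line from human bronchus, and received TNFα and IFNγ together, each at 50 ng/ml, or PBS alone (untreated), for 18 h or 3 h. Lysates went through immunoprecipitation (IP) with 3A2, a mouse monoclonal antibody to HuR, or with IgG1 of no relevant specificity. cDNA labelled with 33P was made from the precipitated RNA and read on a membrane array of immune and inflammatory genes. The 24 arrays make 8 groups of 3: stimulated and untreated cells at 18 h and at 3 h with HuR IP, and the same 4 with IgG1 IP. Replicates are numbered 1, 3 and 4 in every group, and a number is called a set (set 1, set 3, set 4). The design text calls the replicates biological.

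In the canonical pathway, TNF receptor signalling recruits adaptors that bring MAP3K7 (TAK1) with its partner TAB1 to the IKK complex. That complex joins the catalytic subunits IKKα (CHUK) and IKKβ (IKBKB) to the regulatory subunit NEMO (IKBKG), and phosphorylates IκB proteins so that NF-κB dimers reach the nucleus. MAP3K14 (NIK) acts on IKKα in the non-canonical pathway, and the IKK-related kinases IKKε (IKBKE) and TBK1 phosphorylate interferon regulatory factors. These enzymes are controlled to a large part by phosphorylation, ubiquitin chains and protein turnover, which an RNA array does not measure. HuR binds AU-rich and U-rich elements of many cytokine and chemokine transcripts.

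Each value below is the log2 intensity of a probe minus the median of the 355 gene probes on the same array, so 0 is the middle probe of that array. Array medians ran from 2303 to 23848 intensity units, and a shift shared by most transcripts of a precipitate cannot be seen on this scale. No array of total RNA was analysed here, so the amount of a transcript in the cells and the share of it that was precipitated cannot be told apart. The same holds for fewer cells and less RNA per cell. Across genes, 2 arrays from 1 set correlated at a median of 0.750. The median was 0.394 for an array of set 1 with one of set 3 or 4, and 0.766 for set 3 with set 4. Every comparison of conditions carries this difference between sets inside its groups. Epithelial markers on the fixed list (keratins and others) have no measured probe, so the labelled cell type could not be checked.

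No kinase or regulator of the 8 passed the test for a change with TNFα and IFNγ. Over both antibodies and both times, 0 of 8 members passed (limma, Benjamini-Hochberg adjusted p under 0.05 over 355 genes), beside 7.04% of all genes, or 24 higher and 1 lower. At that share a count of 0 among 8 members is near the background. The members' changes lay between -0.12 for IKBKG and 0.09 for IKBKE on the log2 scale, with a median of -0.03 beside -0.05 over all genes. The 95% confidence intervals, not adjusted for the number of comparisons, bound the change in intensity on this scale only. For TAB1 the interval ran from 0.863-fold to 1.10-fold, and for MAP3K7 from 0.658-fold to 1.33-fold. Background left in the intensities would make the change in RNA larger than these bounds show. With normexp background correction the members' changes ran from -0.27 to 0.19, and none passed (limma). HuR and IgG1 arrays of a set may come from 1 lysate, so pooling them overstates the number of independent samples. This fit has no term for set. With such a term added, 0 of 8 members passed as well (lowest adjusted p = 0.582, limma).

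**Figure D1:**
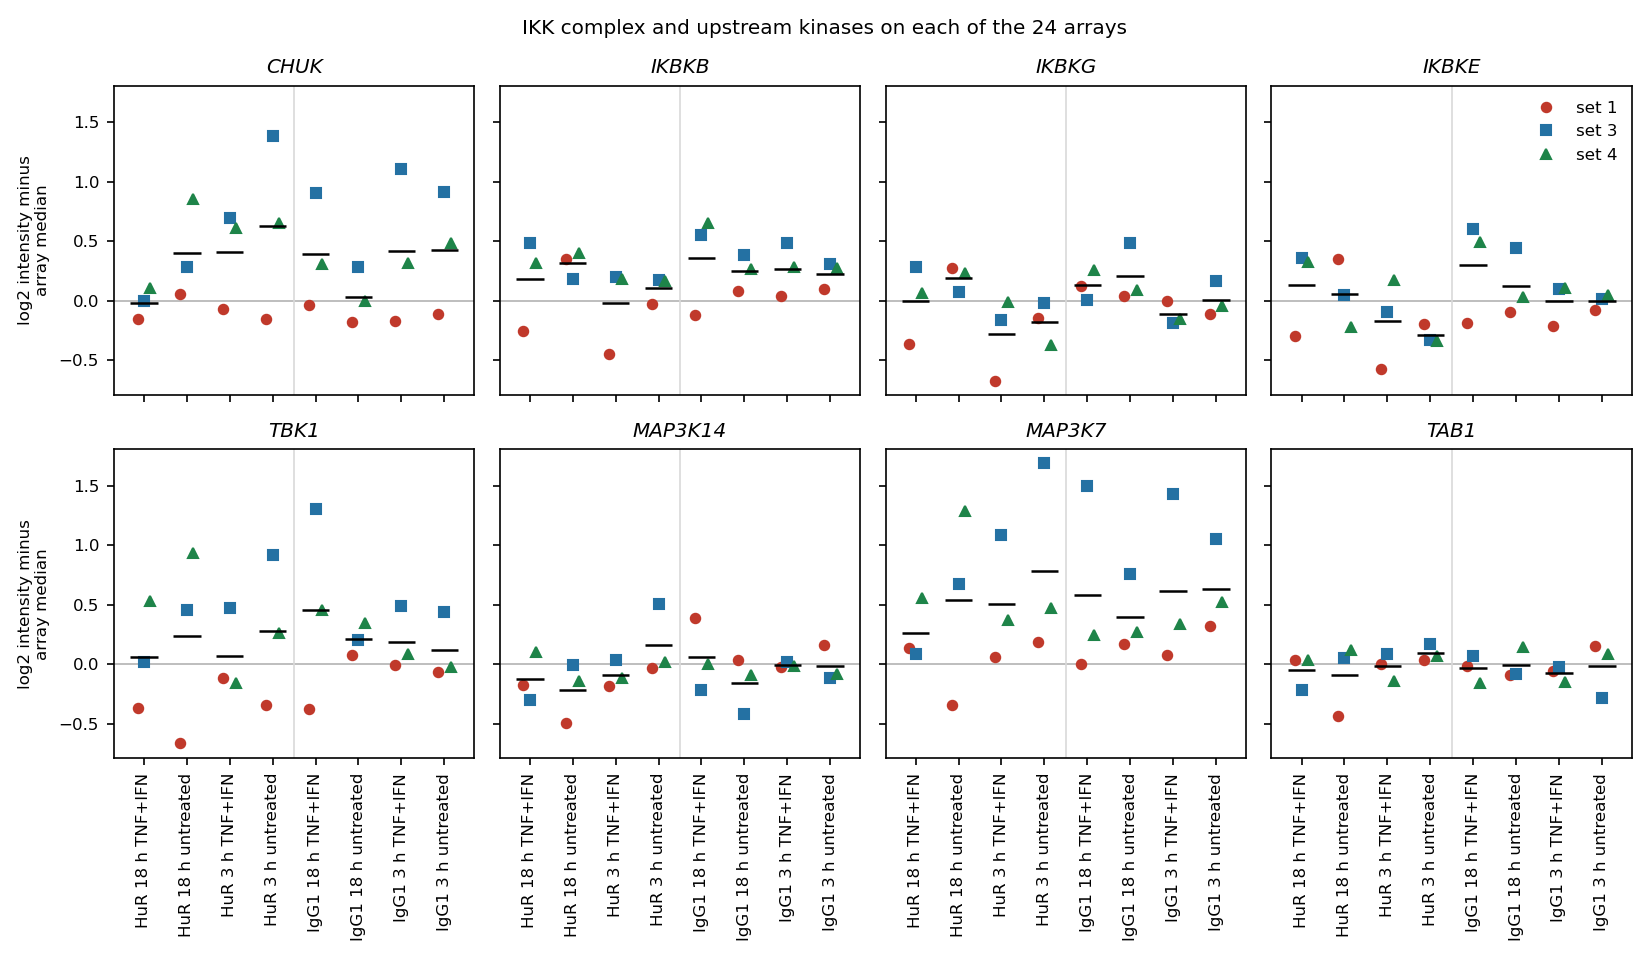
Log2 intensity minus the array median (vertical axis) for the 8 members on each of the 24 arrays; the horizontal axis gives the 8 groups, points are arrays marked by set, and black bars are means of 3. Set 1 lies below the other sets in most groups for CHUK, IKBKB, IKBKE, TBK1 and MAP3K7, and stimulated and untreated groups overlap for every member.

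The catalytic subunit CHUK had values of -0.15, 0.00 and 0.11 in stimulated HuR IPs at 18 h (sets 1, 3 and 4), against 0.06, 0.29 and 0.85 in untreated ones. In IgG1 IPs at 18 h it had -0.03, 0.91 and 0.31 in stimulated cells, against -0.17, 0.28 and -0.00 in untreated cells. Stimulated arrays were lower than untreated ones on average with HuR and higher with IgG1, and the groups overlapped in both. Within sets 1, 3 and 4 the difference was -0.21, -0.29 and -0.74 with HuR, and 0.14, 0.63 and 0.31 with IgG1. Over both times and antibodies 5 of 12 such pairs of CHUK were above 0. The difference, stimulated minus untreated, was -0.41 ± 0.39 in HuR IPs and 0.36 ± 0.39 in IgG1 IPs (SE, n = 3 arrays per group). The contrast of HuR with IgG1 in this difference, -0.78 ± 0.55 with an interval from -1.92 to 0.37, was the largest member difference in any comparison other than that of the sets. It did not pass (limma, adjusted p = 0.994), and 0 of 8 members passed in that comparison, beside 0% of all genes.

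At 3 h CHUK had -0.07, 0.70 and 0.61 in stimulated HuR IPs, against -0.15, 1.39 and 0.66 in untreated ones. With IgG1 it had -0.17, 1.11 and 0.32 in stimulated cells, against -0.11, 0.92 and 0.49 in untreated cells. In each of these 4 groups set 1 was lowest and set 3 highest. The difference at 3 h was -0.21 ± 0.39 in HuR IPs and -0.01 ± 0.39 in IgG1 IPs.

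IKBKB, the catalytic subunit that carries most canonical signalling, varied less. Its 8 group means lay between -0.02 in stimulated HuR IPs at 3 h and 0.36 in stimulated IgG1 IPs at 18 h, with SDs from 0.11 to 0.42. Its difference over both antibodies was -0.01 ± 0.16 at 18 h and -0.04 ± 0.16 at 3 h (SE, n = 6 arrays per group). Over both times the interval ran from 0.831-fold to 1.16-fold. Stimulated minus untreated was above 0 in 7 of 12 pairs of arrays of the same set, antibody and time.

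IKBKG, the regulatory subunit without kinase activity, had -0.36, 0.28 and 0.07 in stimulated HuR IPs at 18 h, against 0.28, 0.08 and 0.24 in untreated ones. At 3 h it had -0.67, -0.16 and -0.01 in stimulated HuR IPs, against -0.14, -0.02 and -0.37 in untreated ones. Among these HuR IPs the arrays lay farthest apart within the stimulated groups, where set 1 was lowest at both times. With IgG1 at 18 h IKBKG had 0.12, 0.01 and 0.26 in stimulated cells, against 0.04, 0.49 and 0.09 in untreated cells. With IgG1 at 3 h it had 0.00, -0.18 and -0.15 in stimulated cells, against -0.11, 0.17 and -0.04 in untreated cells. There the untreated arrays lay farther apart, and set 1 was not the lowest stimulated array. The pooled difference was -0.14 ± 0.14 at 18 h and -0.11 ± 0.14 at 3 h, and 5 of 12 pairs were above 0. A pseudogene, IKBKGP1, is a near copy of part of IKBKG, and signal from both on this probe cannot be told apart.

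IKBKE, the IKK-related kinase known to be inducible in other cell systems, had -0.30, 0.36 and 0.32 in stimulated HuR IPs at 18 h, against 0.35, 0.05 and -0.22 in untreated ones. With IgG1 at 18 h it had -0.19, 0.61 and 0.49 in stimulated cells, against -0.09, 0.45 and 0.03 in untreated cells. With both antibodies the stimulated array was the lower one in set 1 and the higher one in sets 3 and 4. At 3 h its values were -0.57, -0.09 and 0.17 in stimulated HuR IPs, against -0.19, -0.33 and -0.33 in untreated ones. With IgG1 at 3 h they were -0.21, 0.10 and 0.10 in stimulated cells, against -0.08, 0.02 and 0.05 in untreated cells. Averaged over the 4 pairs of a set, set 1 gave a difference of -0.31, set 3 one of 0.20 and set 4 one of 0.39. The pooled difference of IKBKE was 0.12 ± 0.17 at 18 h and 0.06 ± 0.17 at 3 h, and 8 of 12 pairs were above 0. Without set 1 the difference at 18 h was 0.37, which did not pass either (limma, adjusted p = 0.279).

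TBK1, which shares targets with IKKε, had group means from 0.06 in stimulated HuR IPs at 18 h to 0.46 in stimulated IgG1 IPs at 18 h. Its SDs reached 0.84, in stimulated IgG1 IPs at 18 h, where its values were -0.38, 1.30 and 0.45. Its pooled difference was 0.04 ± 0.30 at 18 h and -0.07 ± 0.30 at 3 h, so TBK1 was measured with a wider error than IKBKE.

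MAP3K7, which phosphorylates the IKK catalytic subunits, had 0.14, 0.09 and 0.56 in stimulated HuR IPs at 18 h, against -0.34, 0.67 and 1.29 in untreated ones. With IgG1 at 18 h it had 0.00, 1.50 and 0.25 in stimulated cells, against 0.17, 0.76 and 0.27 in untreated cells. Within a group the arrays differed by up to 1.63, which is wider than any difference between its group means. At 3 h it had 0.06, 1.09 and 0.37 in stimulated HuR IPs, against 0.19, 1.69 and 0.47 in untreated ones. The 3 h values with IgG1 were 0.07, 1.43 and 0.34 in stimulated cells, against 0.32, 1.05 and 0.52 in untreated cells. In all, 3 of 12 pairs of MAP3K7 were above 0, where the median over all genes is 5 of 12, and its pooled difference was -0.05 ± 0.34 at 18 h and -0.15 ± 0.34 at 3 h.

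TAB1, the activating partner of MAP3K7, had group means between -0.09 and 0.09, and MAP3K14, the kinase of the non-canonical pathway, between -0.21 and 0.16. MAP3K14 differed by 0.15 ± 0.14 at 18 h and -0.12 ± 0.14 at 3 h over both antibodies. TAB1 differed by 0.01 ± 0.12 at 18 h and -0.09 ± 0.12 at 3 h. The stimulated difference at 18 h minus that at 3 h was 0.28 ± 0.20 for MAP3K14, and 0 of 8 members passed in that comparison (limma), beside 0.282% of all genes.

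Split by antibody and time, the count of members that passed stayed at 0 of 8 throughout (limma). All genes passed at 1.13% in HuR IPs at 18 h and 0.563% at 3 h, and in IgG1 IPs at 1.41% at 18 h and 1.13% at 3 h. Over both antibodies they passed at 3.94% at 18 h and 3.38% at 3 h. Over these and all further comparisons of conditions, the lowest unadjusted p of a member was 0.0535, for IKBKG at 18 h minus 3 h in untreated cells (limma).

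**Figure D2:**
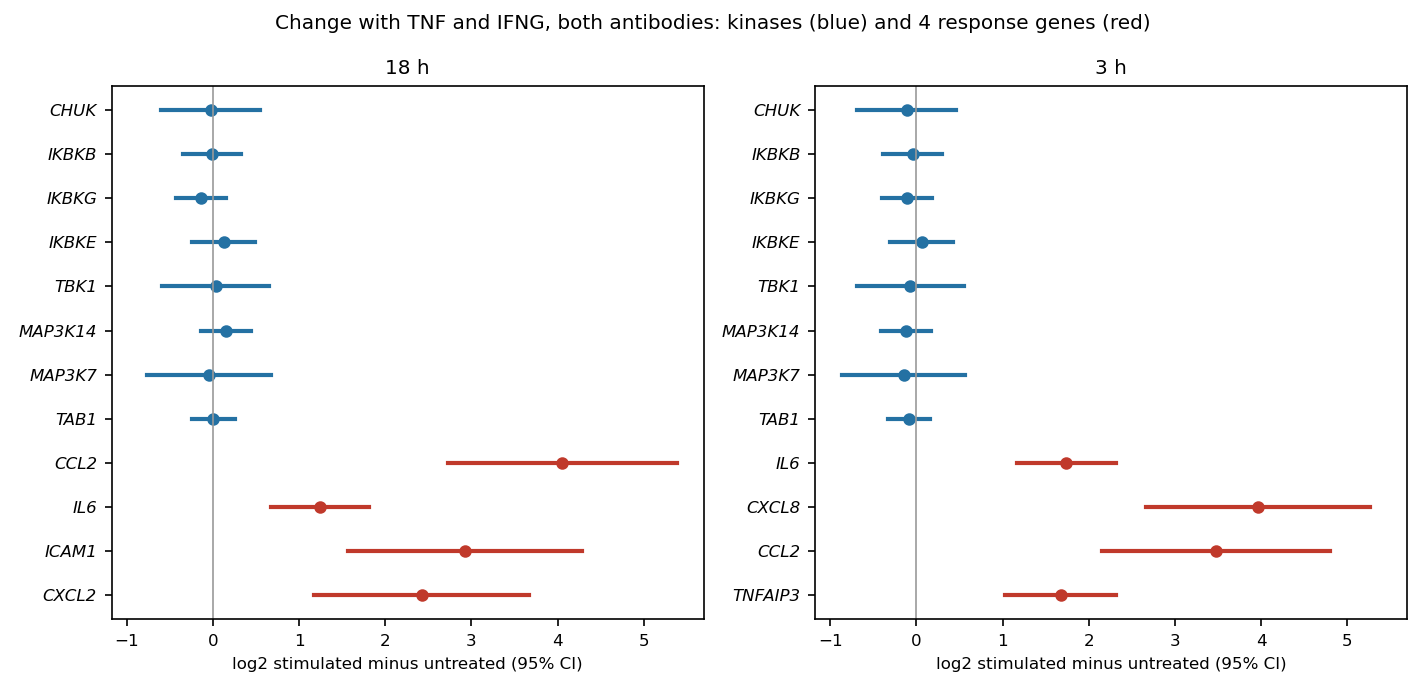
Log2 difference, stimulated minus untreated, over both antibodies with its 95% confidence interval (horizontal axis) at 18 h and at 3 h, for the 8 members (blue) and the 4 NF-κB response genes with the smallest p at each time (red). The intervals of all members include 0, and those of the response genes lie above it.

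The same arrays held large differences downstream of the kinases. Of 8 measured NF-κB response genes, 8 passed as higher over both times and antibodies, with a median change of 2.61. The chemokine gene CCL2 rose by 3.76 ± 0.45 (SE, adjusted p = 1.76e-05, limma), and the adhesion gene ICAM1 rose by 3.18 ± 0.46 (adjusted p = 9.21e-05, limma). Over both antibodies 5 of 8 passed at 18 h and 7 of 8 at 3 h, where CXCL8 rose by 3.97 ± 0.62 (adjusted p = 0.000532, limma).

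Other genes of the pathway, grouped by role, are counted here over both times and antibodies (limma). Of 14 measured receptors that feed the pathway, 0 passed, and of 12 measured adaptors and proximal kinases, 0 passed. Among the 5 Rel subunits 2 passed as higher, RELA by 1.25 ± 0.36 and NFKB2 by 0.65 ± 0.16. Among 7 measured IκB proteins and feedback inhibitors 3 passed as higher: NFKBIA by 2.30 ± 0.57, TNFAIP3 by 1.32 ± 0.22 and BCL3 by 0.86 ± 0.25. NFKBIA encodes IκBα, the main substrate of IKK, and with TNFAIP3 it is also on the list of response genes. In the interferon branch IRF1, a transcription factor, passed as higher by 2.35 ± 0.25. At the 7.04% of all genes that passed, a count of 0 in a list of 14 or 12 is near the background. These counts rest on the sets. Of the 8 response genes 8 passed without set 1, 6 without set 3 and 3 without set 4, and all 8 had a positive difference each time. Rel subunits and inhibitors held 2 and 4 genes that passed without set 1, and 0 each without set 3 or without set 4. Receptors stayed at 0 in all of these fits, and among adaptors 1, IRAK2, passed without set 1. Whether the groups differ in their response was not tested. The lists were chosen with earlier results of these data known, so the response genes are no independent evidence.

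No member passed as higher or lower in HuR IPs than in IgG1 IPs, relative to the middle probe of each array. Over the 4 conditions 0 of 8 members passed (limma), beside 0% of all genes, of which 12 had an unadjusted p under 0.05. HuR minus IgG1 lay between -0.17 ± 0.12 for IKBKE and 0.04 ± 0.19 for CHUK, with a median of -0.06 beside -0.03 over all genes. Without centring all 8 members were above 0, between 0.04 and 0.25, and in the second deposited table between 0.11 and 0.32. The upper end of the interval was 1.36-fold for CHUK, 1.08-fold for IKBKB, and 1.06-fold for both IKBKG and IKBKE. It was 1.28-fold for TBK1, 1.13-fold for MAP3K14, 1.39-fold for MAP3K7 and 1.14-fold for TAB1. These bounds hold on the centred scale only, and the 2 precipitates were not put on a common scale by any control spot with values.

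**Figure D3:**
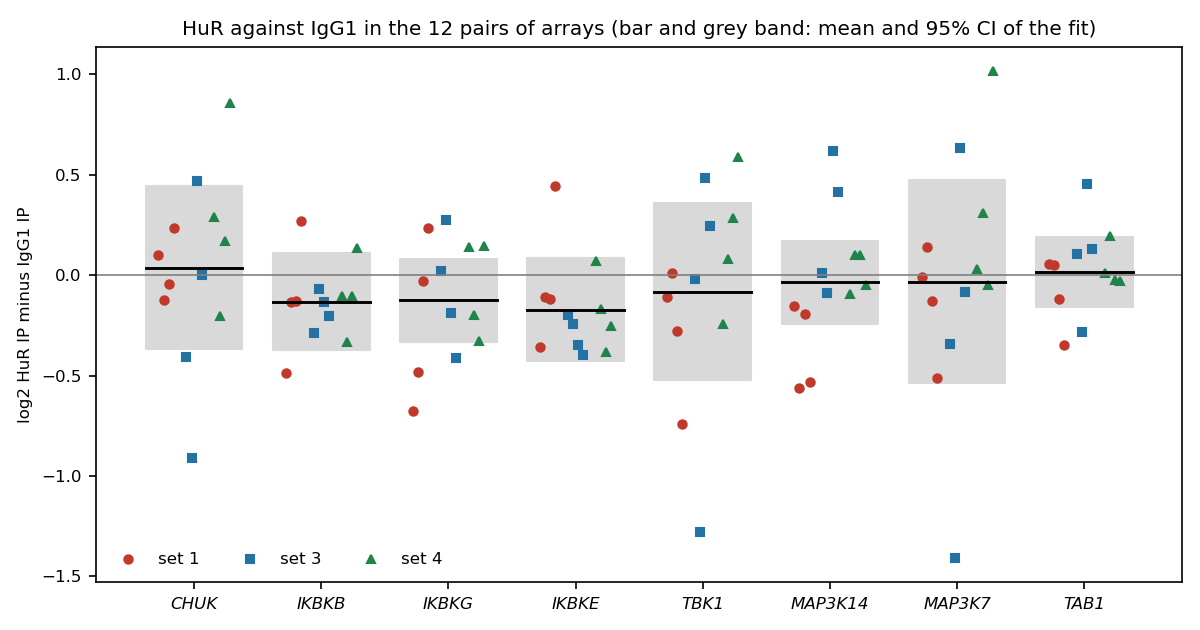
Log2 difference, HuR IP minus IgG1 IP (vertical axis), for each member in the 12 pairs of arrays of the same set and condition, marked by set; the black bar is the mean over the 4 conditions and the grey band its 95% confidence interval. All 8 bands include 0, and for IKBKB and IKBKE, whose probes have adjacent numbers, 2 of 12 pairs lie above it.

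IKBKB and IKBKE were above 0 in 2 of 12 pairs each, and the other members in 5 to 7 of 12. Over all genes the median was 6 of 12, and the share of genes at 2 or fewer was not computed. The probes of IKBKB and IKBKE have adjacent numbers and varied together, so their counts are not independent. After subtraction of the median of neighbouring probe numbers (below), HuR minus IgG1 over the 4 conditions lay between -0.10 and 0.06 for the members. In untreated cells at 3 h IKBKE had -0.19, -0.33 and -0.33 in HuR IPs, against -0.08, 0.02 and 0.05 in IgG1 IPs. Among comparisons of HuR with IgG1, or of stimulated with untreated cells, this was the only one in which a member's groups did not overlap. Of all genes, 5.35% had HuR wholly below IgG1 there. The difference of -0.28 ± 0.24 did not pass (limma, adjusted p = 0.999), and 0 of 8 members passed in that comparison, beside 0% of all genes. The levels at 18 h and 3 h were compared only with both antibodies pooled, and only the stimulated changes were compared between times within an antibody. IKBKG in untreated HuR IPs did separate by time. The share of all genes that separate so within an antibody was not computed, so nothing is read from that separation. In stimulated cells at 18 h all 8 members were below 0 on the centred scale, between -0.41 for CHUK and -0.01 for TAB1, beside 46.5% of all genes above 0. The sign turned for all 8 without centring, to between 0.96 and 1.36, and in the second deposited table, to between 1.22 and 1.62. The median of all genes lay at 1.35 without centring and at 1.61 in that table. In that comparison 0 of 8 members passed (limma), beside 0% of all genes, of which 11 had an unadjusted p under 0.05.

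Between 18 h and 3 h the members with the smallest p in untreated cells were IKBKG and MAP3K14. IKBKG differed by 0.29 ± 0.14, with an interval from -0.00 to 0.58, and MAP3K14 differed by -0.26 ± 0.14. In stimulated cells the difference was 0.26 ± 0.14 for IKBKG and 0.30 ± 0.17 for IKBKE. None passed (limma): 0 of 8 members in untreated cells, beside 0% of all genes, and 0 of 8 in stimulated cells, beside 0.563% of all genes.

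For CHUK, IKBKB, TBK1 and MAP3K7 the set took a larger unadjusted share of the variance than the condition groups did, and for the other 4 members a smaller one. Set 1 against the mean of sets 3 and 4 is a comparison of replicate numbers, which may share cultures, membranes or hybridisations, and was chosen because set 1 was known to stand apart. In it 4 of 8 members passed as lower in set 1, beside 26.5% of all genes as lower and 46.5% in either direction (limma). MAP3K7 ranged from -0.34 to 0.32 in set 1 with a median of 0.11, against 0.09 to 1.69 with a median of 1.07 in set 3 and 0.25 to 1.29 with a median of 0.42 in set 4. CHUK ranged from -0.17 to 0.06 in set 1 with a median of -0.13, against 0.00 to 1.39 with a median of 0.80 in set 3 and -0.00 to 0.85 with a median of 0.40 in set 4. For both genes the range of set 1 overlapped those of sets 3 and 4, and sets 3 and 4 overlapped widely, while the median of set 1 was the lowest of the 3. The differences were -0.70 ± 0.17 for MAP3K7, -0.66 ± 0.13 for CHUK, -0.65 ± 0.16 for TBK1 and -0.37 ± 0.09 for IKBKB (SE, 8 arrays against 16). Their adjusted p ran from 0.000359 to 0.00268 (limma).

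IKBKE differed by -0.27 ± 0.11 between these sets and did not pass (limma, adjusted p = 0.0605). It did pass when 1 of 3 untreated HuR IP arrays was left out: set 1 at 18 h (-0.37), set 4 at 18 h (-0.31) or set 1 at 3 h (-0.33). IKBKG, MAP3K14 and TAB1 lay between -0.15 and 0.01. The set took 55.6% of the variance of MAP3K7, 54.4% of CHUK, 50.9% of TBK1 and 49.4% of IKBKB, beside a median of 31.9% over all genes. It took 20.3% for IKBKE, 10.2% for IKBKG, 1.64% for TAB1 and 0.271% for MAP3K14. The 8 condition groups took 46.5% of the variance of IKBKG, 34.5% of IKBKE, 29.6% of MAP3K14 and 12.7% of TAB1, more than the set did for each of these. They took 21.4% for IKBKB, 20.6% for CHUK, 7.85% for MAP3K7 and 7.33% for TBK1, less than the set did, beside a median of 19.4% over all genes. These shares describe 24 arrays and have no test. They are not adjusted for there being 8 groups but 3 sets. Random variation alone gives the groups a larger share than the sets, so a larger group share does not show that condition outweighs set.

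The spread of the arrays moved with the sets. The interquartile range of the centred values over all genes had a median of 0.67 in set 1, against 0.95 in set 3 and 0.94 in set 4. The 4 members that passed were also the 4 whose mean over the 24 arrays was at or above the median of the 355 probe means. The part of array spread in the set difference was not tested. With no centring the set difference of CHUK was 0.028 and that of IKBKB 0.32, so their lower place in set 1 is relative to the other probes of the same arrays.

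The middle probe of an array lay 0.49 to 1.36 log2 units above its dimmest probe, and the members were near or above it, with median percentiles from 48.2 (MAP3K14) to 69.0 (MAP3K7) of the 355 probes. Over the 24 arrays they stood a median of 0.76 (IKBKE) to 1.27 (MAP3K7) log2 units above the dimmest probe of the same array, and TBK1 came as close as 0.07 on 1 array. MAP3K14 was below the array median on 16 of 24 arrays, IKBKG, IKBKE and TAB1 on 11, and MAP3K7 on 1. Background left in the intensities would make a change look smaller than it is, and the sources used here do not give its size.

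Between arrays of the same set, 3 members with adjacent probes varied together. After each probe's set means were removed, IKBKB and IKBKE correlated at r = 0.77, IKBKB and IKBKG at 0.67, and IKBKG and IKBKE at 0.63 over the 24 arrays. These 3 probes carry the consecutive numbers 139, 140 and 141. Over all 346 measured pairs with consecutive numbers the median r was 0.45, and 18.5% of them were above the value of IKBKB with IKBKE. Over pairs more than 5 numbers apart the median was -0.01.

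**Figure D4:**
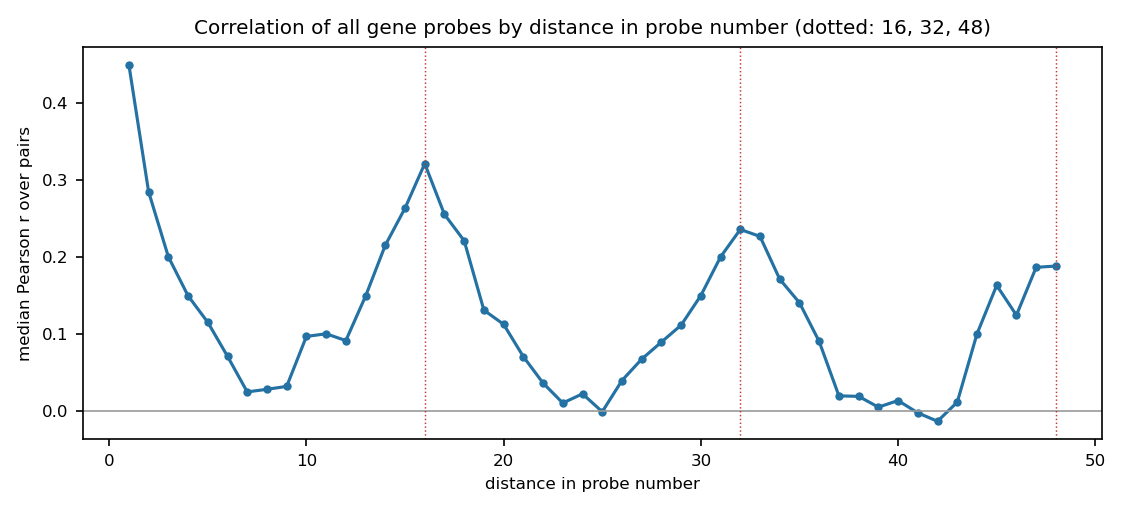
Median Pearson r over pairs of all 355 probes (vertical axis), with set means removed, against the distance between their probe numbers (horizontal axis). The line falls to near 0 at a distance of 8 and rises again at the dotted distances of 16, 32 and 48.

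The median correlation between probes came back at regular distances in probe number: 0.03 at a distance of 8, 0.32 at 16, 0.02 at 24 and 0.24 at 32. The sources used here do not give the layout of the membrane. This repeat of 16, seen in the data, was used to place probe numbers in rows of 16 and to subtract from each value the median of its neighbours, 2 rows and columns to each side (7 to 24 probes). After that the correlation was 0.13 for IKBKB with IKBKE, 0.25 for IKBKB with IKBKG and -0.28 for IKBKG with IKBKE. The neighbours subtracted from each of these 3 include the other two, which by itself lowers those values.

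Pairs of members that are far apart in number behaved otherwise. CHUK (number 70) and MAP3K7 (number 227) correlated at 0.78, and at 0.85 after the local subtraction. TBK1 (number 305) and MAP3K7 correlated at 0.74 and then 0.59. IKBKB with CHUK stood at -0.06 and then 0.65, and IKBKB with MAP3K7 at -0.10 and then 0.60. IKBKB with TBK1 stood at 0.09 and then 0.63, and CHUK with TBK1 at 0.39 and then 0.54. So the IKBKB pattern was near that of its numbered neighbours before the subtraction and nearer to CHUK, TBK1 and MAP3K7 after it. These 4 are also the members whose mean was at or above the median of all probe means. The part of array spread in their correlations was not tested. MAP3K7 with TAB1, numbers 227 and 228, stood at 0.58 before the subtraction and -0.11 after it. Each is among the neighbours subtracted from the other, which by itself lowers that value. All of these are descriptions over 24 arrays that share sets, and the part of membrane position in them was not tested otherwise.

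**Figure D5:**
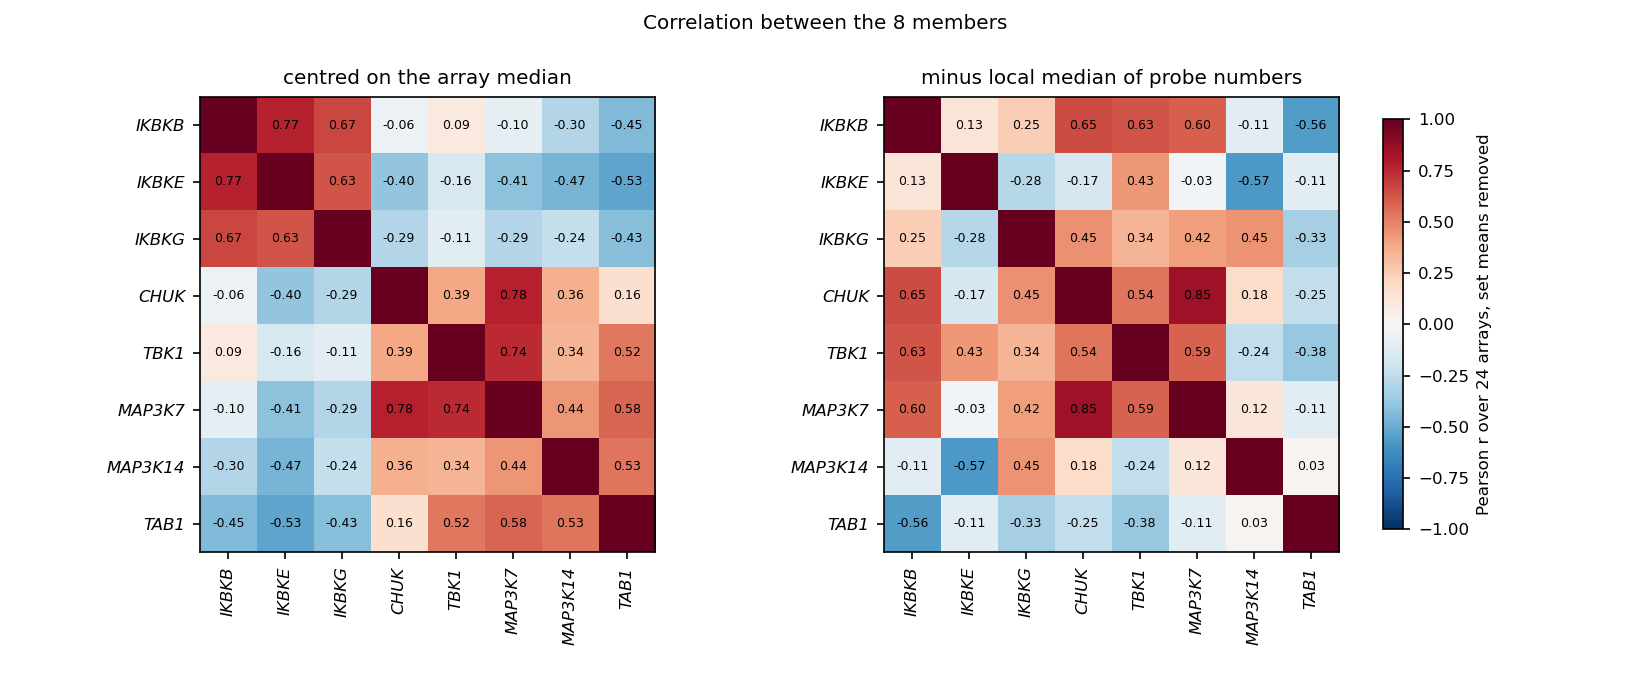
Pearson r between the 8 members over 24 arrays with set means removed (colour and numbers), for values centred on the array median (left) and after the median of neighbouring probe numbers was subtracted (right). The block of IKBKB, IKBKE and IKBKG at the upper left stands at 0.63 to 0.77 on the left and -0.28 to 0.25 on the right, and CHUK with MAP3K7 at 0.78 and 0.85.

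The nearest neighbours of IKBKB, IKBKE and IKBKG by number shared their outlying values in part. In stimulated HuR IP at 3 h of set 1 IKBKB, IKBKE and IKBKG had -0.44, -0.57 and -0.67. On that array IGFBP3 (number 137) had 0.23, IGSF6 (138) -0.67, IL10 (142) 0.77 and IL10RA (143) -0.71. In untreated HuR IP at 18 h of set 1 the 3 members had 0.35, 0.35 and 0.28. There IGFBP3 had 0.28, IGSF6 0.24, IL10 0.74 and IL10RA -0.10. Of these 4 neighbours, IGSF6 was near the members on both arrays.

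The probes most like each member, by r over the 24 arrays with set means removed, were named by a fixed rule of 3 per member. For CHUK they were IL13RA1 (0.86), NBL1 (0.83) and TGFB2 (0.83), and for MAP3K7 they were PPP3CB (0.94), LTBR (0.93) and SMAD2 (0.93). TBK1 was most like MIF (0.86), JAK1 (0.83) and MYDGF (0.79). IKBKB was most like IKBKE (0.77), IL15 (0.71) and IGSF6 (0.70), and IKBKE most like IL15 (0.83), IL16 (0.77) and IKBKB. IKBKG was most like IL9R, LAG3 and IL2RB (each 0.82), MAP3K14 most like SELPLG (0.85), IL4R (0.80) and IL11 (0.79), and TAB1 most like SFN (0.73), TGFB1I1 (0.68) and PPP3CB (0.66). Of these 24 pairs, 16 (66.7%) had numbers within 1 of each other or of a multiple of 16 apart, beside 18.5% of all pairs of probes. The repeat of 16 was read from these same correlations, so this excess is no independent evidence of it. After the local subtraction the rule gave 6 of 24 such pairs (25%). That subtraction by itself lowers the likeness of probes close together in the rows of 16, so the fall is no separate evidence on membrane position.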

How the data were processed

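The authors deposited 1 intensity per probe and array, which the file calls non-normalized; the sources used here do not give image analysis, background treatment or membrane layout. In the other deposited table each array's intensity is multiplied by a factor, 0.542 to 3.64. Of 384 probes, 355 carry values. Names follow probe accessions in the RefSeq gene table (342 matched); 7 of 8 members matched, and IKBKB keeps the file's symbol.

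From these, log2 values minus the array median were computed. limma 3.58.1 (R 4.3.3; lmFit, eBayes) was run on the 24 arrays together, with 1 coefficient per group and no block; the comparison of sets has group and set as additive terms. Benjamini-Hochberg adjustment ran over 355 genes, threshold 0.05. The self-test on simulated data recovered 37 of 40 genes changed by 3 log2 units (stimulated minus untreated, HuR IP, 3 h, over 355 genes), with 1 false call. Its simulated noise was independent between arrays, without sets. It covers neither changes of the members' size nor false calls among related arrays. Correlations and figures used Python 3.11.15. Alternatives were quantile normalization, no centring, the second table, normexp with an offset of 50, dim probes left out, replicate blocks, array weights, only the groups compared, each replicate left out and, added after the data were seen, local subtraction. All members were named; of each pathway list, up to 4 genes with the smallest p that passed, and 3 most-alike probes per member. Members and lists were chosen with earlier results of these data known. A result of the interferon branch list is not reported here.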

Additional observations from a re-analysis of the deposited data

How the results depend on the processing

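No member passed in any of the 19 comparisons of conditions, in the fit reported or under the 37 other settings (limma). The lowest adjusted p was 0.0637, for HuR minus IgG1 in stimulated cells at 18 h in the second deposited table (limma). Of 160 member values, 144 took the other sign under at least 1 setting. These settings include no centring and the second table, which move all genes together. In the set comparison 4 members passed, 4 to 5 with a replicate left out, 5 with normexp or local subtraction, 3 in the second table (IKBKB at -0.68 did not) and 0 with no centring, where CHUK (0.028), IKBKB (0.32) and TBK1 (0.032) turned positive. The cause was not tested.

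Counts over all genes moved more. Stimulated against untreated over all arrays called 25 genes, 12 with no centring, 14 in the second table and 4 to 35 with a replicate left out. Over both antibodies at 18 h it called 14, 5 with no centring, 23 with array weights and 0 to 27 with a replicate left out; at 3 h it called 12, 8 with no centring, 28 with array weights and 0 to 22 with a replicate left out. HuR minus IgG1 in stimulated cells at 18 h called 0, and 25 in the second table, where the middle gene differed by 1.61. Over all settings the other counts ran from 0 to 13 (4 reported) in HuR IPs at 18 h and 0 to 19 (2) at 3 h, and in IgG1 IPs from 0 to 24 (5) at 18 h and 0 to 18 (4) at 3 h. They ran from 0 to 15 (2) for 18 h minus 3 h in stimulated cells and from 85 to 192 (165) for the sets. The array weights did not converge fully. The filter on dim probes kept 178 probes and 4 members.

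Deviations of arrays with the same replicate number correlated over 0.1 in 82 of 84 pairs (set medians 0.55 to 0.68, range 0.03 to 0.88). Between numbers the median was -0.47. Deviations from a mean sum to 0, which by itself pulls that value below 0, so it is no independent contrast. The reported fit has no block because 2 same-number pairs were lower, although the other pairs show that arrays of a set are related. The difference between sets therefore stays in its SEs and intervals, and fits with the block are given beside it. For the stimulated difference over both times, the SE of CHUK was 0.120 with the block against 0.193 without. That of TAB1 was 0.0836 against 0.0827. With the replicate block the calls over all genes were 33 in place of 25, 23 in place of 14 and 17 in place of 12, and members stayed at 0. The block narrowed the stimulated interval of MAP3K7 to -0.44 to 0.24 and of CHUK to -0.32 to 0.18 (log2), and the lowest adjusted p of a member for HuR minus IgG1 was 0.670 (limma). Among single groups the block raised the calls to 13 in place of 4 (HuR IP, 18 h) and 18 in place of 5 (IgG1 IP, 18 h).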
